A study of Oryza sativa Japonica Group with 20 samples.

Results

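Rice HSP101, HSP90 and HSP70 chaperones were described through 10 genes, taken by locus identifier out of the 57624 loci in the mRNA tables. They were LOC_Os05g44340 (HSP101), the cytosolic HSP90 genes LOC_Os04g01740, LOC_Os08g39140 and LOC_Os09g30412, the endoplasmic reticulum HSP90 gene LOC_Os06g50300, and the HSP70 genes LOC_Os03g16860, LOC_Os01g62290, LOC_Os05g38530, LOC_Os11g47760 and LOC_Os03g60620. Their identifiers place them on chromosomes 1, 3, 4, 5, 6, 8, 9 and 11. Poly(A) RNA was sequenced from seedlings of the rice cultivar Nipponbare, 14 days old and grown in Hoagland nutrient solution, with roots and shoots taken apart. Plants were untreated (harvested at 0 h) or exposed to sodium arsenite, As(III), at 20 or 80 µM for 6 or 24 h. Each of the 5 conditions had 1 mRNA library in each tissue, 10 libraries in all, so no group had a replicate and no value below has an error of its own. Untreated plants were harvested at 0 h alone. Arsenite and harvest hour thus cannot be told apart at 6 h, nor arsenite and the passing of a day at 24 h. No source used here says whether a library held 1 plant or several.

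HSP101 belongs to the ClpB/HSP100 family of ring-shaped ATPases that pull single proteins out of aggregates; in Arabidopsis and maize it is needed for acquired tolerance to heat. HSP70 proteins bind exposed stretches of unfolded chains, with DnaJ-type partners that load their clients, and hand substrates both to HSP101 and to HSP90. HSP90 matures kinases, receptors and other clients late in folding, and holds heat stress transcription factors inactive until misfolded protein draws the chaperone away. The endoplasmic reticulum has its own HSP90, which folds secreted and membrane proteins. Arsenite binds the thiol groups of cysteines and is known to misfold proteins and to induce heat shock genes in many organisms.

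The files give RPKM, reads scaled to the length of the gene and the size of the library. Summed RPKM per library lay between 313836 and 369084, and 8016 to 12515 loci reached 5 RPKM. The read totals are unknown; comparing low values put the value of 1 read in the libraries at 0.779 to 1.38 times that in the untreated root library. The summed level of 4 leaf photosynthesis genes was 1278 to 2737 RPKM in shoots, against 157.6 RPKM in untreated roots and 8.7 to 33.5 RPKM in treated roots. That of 4 root uptake genes was 2.3 to 10.9 RPKM in shoots, against 276.6 RPKM in untreated roots and 3.1 to 79.2 RPKM in treated roots. The shoot libraries at 20 µM go against their labels: the files labelled 20 µM 6 h and 20 µM 24 h carry each other's code in their headers. The dawn clock gene minus the mean of the day clock genes was 3.37 (log2) in the library labelled 20 µM 6 h, like untreated shoots at 3.48, and 0.42 in the one labelled 20 µM 24 h. Labels were kept, and every result that uses these libraries carries that doubt.

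HSP101 (LOC_Os05g44340) was near 0 in roots at 20 µM and among the more abundant mRNAs at 80 µM. In roots it had 0.2 RPKM untreated, 1.4 and 0 RPKM at 20 µM for 6 and 24 h, and 141.8 and 109.2 RPKM at 80 µM for 6 and 24 h. Both 80 µM root libraries stood far above the other 8 libraries of the study, in which the highest value was 8.8 RPKM. The gene ranked 543 among the 57624 loci at 80 µM for 6 h and 504 at 80 µM for 24 h, against 17831 at 20 µM for 6 h. In shoots it had 4.1 RPKM untreated, 1 and 1.6 RPKM in the libraries labelled 20 µM for 6 and 24 h, and 8.8 and 0 RPKM at 80 µM for 6 and 24 h. Every shoot library was thus far below the 80 µM roots, and at 80 µM for 24 h the gene was listed at 0 in shoots. On the (RPKM + 1) scale, used for every fold below, the 80 µM root library was 59.5-fold higher than the 20 µM one at 6 h. This scale understates changes of low genes, and no fold is given where a library is listed at 0.

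**Figure D1:**
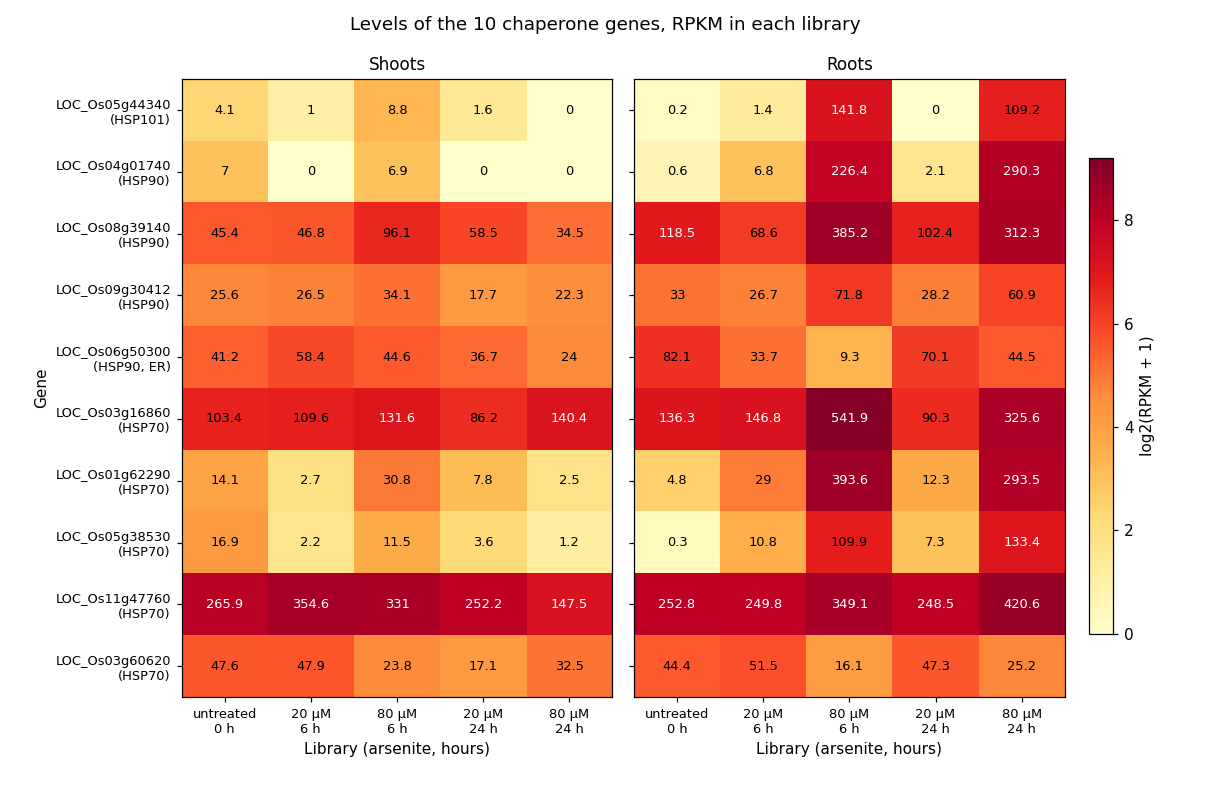
Level of each of the 10 genes (rows) in each mRNA library (columns; shoots left, roots right), printed in RPKM and coloured by log2(RPKM + 1). HSP101, LOC_Os04g01740, LOC_Os01g62290 and LOC_Os05g38530 are dark in the 80 µM root columns alone, LOC_Os11g47760 is dark throughout, and LOC_Os06g50300 is palest in roots at 80 µM for 6 h, with 9.3 RPKM.

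The cytosolic HSP90 genes differed in where they started and in how far they stood above it. LOC_Os04g01740 had 0.6 RPKM in untreated roots, 6.8 and 2.1 RPKM at 20 µM for 6 and 24 h, and 226.4 and 290.3 RPKM at 80 µM for 6 and 24 h. Shoots held 7 RPKM untreated and 6.9 RPKM at 80 µM for 6 h, and it was listed at 0 in the other 3 libraries. Like HSP101, it was abundant in 80 µM roots and low in every other library. The 80 µM root library was 29.2-fold above the 20 µM one at 6 h and 94-fold above it at 24 h.

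LOC_Os08g39140 was already abundant without arsenite. It had 118.5 RPKM in untreated roots, 68.6 and 102.4 RPKM at 20 µM for 6 and 24 h, and 385.2 and 312.3 RPKM at 80 µM for 6 and 24 h. In shoots it had 45.4 RPKM untreated, 46.8 and 58.5 RPKM in the libraries labelled 20 µM for 6 and 24 h, and 96.1 and 34.5 RPKM at 80 µM for 6 and 24 h. Roots thus stood above untreated roots at 80 µM and below them at 20 µM, and the shoot peak at 80 µM for 6 h was below the untreated root level. The root difference between 80 and 20 µM was 5.55-fold at 6 h and 3.03-fold at 24 h.

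LOC_Os09g30412 followed the same outline with a smaller swing. It had 33 RPKM in untreated roots, 26.7 and 28.2 RPKM at 20 µM for 6 and 24 h, and 71.8 and 60.9 RPKM at 80 µM for 6 and 24 h. Shoots held 25.6 RPKM untreated, 26.5 and 17.7 RPKM in the libraries labelled 20 µM for 6 and 24 h, and 34.1 and 22.3 RPKM at 80 µM for 6 and 24 h. The 80 µM root libraries were its 2 highest, 2.63-fold above 20 µM at 6 h and 2.12-fold at 24 h. A neighbouring HSP90 locus, LOC_Os09g30418, was listed at 0 in all 10 libraries. No source used here says how reads shared by near-identical HSP90 or HSP70 copies were counted, so the levels of such copies are uncertain and the effect was not tested.

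The endoplasmic reticulum HSP90 gene, LOC_Os06g50300, went the other way. It had 82.1 RPKM in untreated roots, 33.7 and 70.1 RPKM at 20 µM for 6 and 24 h, and 9.3 and 44.5 RPKM at 80 µM for 6 and 24 h. Each treated root library was below the untreated one, and both 6 h libraries were below the 24 h library of their dose. In shoots it had 41.2 RPKM untreated, 58.4 and 36.7 RPKM in the libraries labelled 20 µM for 6 and 24 h, and 44.6 and 24 RPKM at 80 µM for 6 and 24 h. Roots at 80 µM for 6 h held its lowest value in the study, 3.37-fold below roots at 20 µM for 6 h. The gap was 1.56-fold in the same direction at 24 h. Many genes stood lower in roots at 80 µM for 6 h: 38.3% of 12015 genes were at least 2-fold lower than at 20 µM for 6 h. Against untreated roots, 88.9% of genes had a larger difference than LOC_Os06g50300 at 20 µM for 6 h and 91.1% at 80 µM for 6 h. At 24 h it was 51.1% at 20 µM and 60.9% at 80 µM, nearer the middle of all genes. Between the doses, 80.3% of genes had a larger difference at 6 h and 63.3% at 24 h.

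Of the HSP70 genes, 2 resembled HSP101. LOC_Os01g62290 had 4.8 RPKM in untreated roots, 29 and 12.3 RPKM at 20 µM for 6 and 24 h, and 393.6 and 293.5 RPKM at 80 µM for 6 and 24 h. Shoots held 14.1 RPKM untreated, 2.7 and 7.8 RPKM in the libraries labelled 20 µM for 6 and 24 h, and 30.8 and 2.5 RPKM at 80 µM for 6 and 24 h. Every treated root library exceeded the untreated one, and the 20 µM value was itself above untreated at both times, 5.17-fold at 6 h and 2.29-fold at 24 h.

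LOC_Os05g38530 had 0.3 RPKM in untreated roots, 10.8 and 7.3 RPKM at 20 µM for 6 and 24 h, and 109.9 and 133.4 RPKM at 80 µM for 6 and 24 h. In shoots the untreated library was its highest, at 16.9 RPKM, with 2.2 and 3.6 RPKM in the libraries labelled 20 µM for 6 and 24 h, and 11.5 and 1.2 RPKM at 80 µM for 6 and 24 h. The order of the root libraries by dose was therefore untreated, 20 µM and 80 µM at both times, while every treated shoot library lay below the untreated one. The 80 µM root library was 9.4-fold above the 20 µM one at 6 h and 16.2-fold at 24 h. For LOC_Os01g62290 the same folds were 13.2 and 22.1.

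Among the HSP70 members of the 10 genes, LOC_Os03g16860 and LOC_Os11g47760 were the most abundant in untreated roots and shoots. LOC_Os03g16860 had 136.3 RPKM in untreated roots, 146.8 and 90.3 RPKM at 20 µM for 6 and 24 h, and 541.9 and 325.6 RPKM at 80 µM for 6 and 24 h. In shoots it had 103.4 RPKM untreated, 109.6 and 86.2 RPKM in the libraries labelled 20 µM for 6 and 24 h, and 131.6 and 140.4 RPKM at 80 µM for 6 and 24 h. With 541.9 RPKM it was the highest of the 10 genes in roots at 80 µM for 6 h, and it ranked 43 among all loci there. The 80 µM root libraries were 3.67-fold above 20 µM at 6 h and 3.58-fold at 24 h.

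LOC_Os11g47760 was the most abundant of the 10 genes in 9 of the 10 libraries and had the smallest mean log2 difference between doses in roots. It had 252.8 RPKM in untreated roots, 249.8 and 248.5 RPKM at 20 µM for 6 and 24 h, and 349.1 and 420.6 RPKM at 80 µM for 6 and 24 h. Shoots held 265.9 RPKM untreated, 354.6 and 252.2 RPKM in the libraries labelled 20 µM for 6 and 24 h, and 331 and 147.5 RPKM at 80 µM for 6 and 24 h. The 20 µM and untreated roots were close together, with the 80 µM roots 1.4-fold above 20 µM at 6 h and 1.69-fold at 24 h. The lowest value of the gene was in shoots at 80 µM for 24 h.

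LOC_Os03g60620 was the HSP70 gene with the opposite direction in roots. It had 44.4 RPKM in untreated roots, 51.5 and 47.3 RPKM at 20 µM for 6 and 24 h, and 16.1 and 25.2 RPKM at 80 µM for 6 and 24 h. Shoots held 47.6 RPKM untreated, 47.9 and 17.1 RPKM in the libraries labelled 20 µM for 6 and 24 h, and 23.8 and 32.5 RPKM at 80 µM for 6 and 24 h. Both 80 µM root libraries were below the other 3 root libraries, 3.07-fold below 20 µM at 6 h and 1.84-fold at 24 h. As log2 this was -1.62 and -0.88, where the median of all genes was -0.56 and -0.27. Against untreated roots the gene lay near the middle of all genes at 80 µM. There 60.7% of genes had a larger difference at 6 h and 58.7% at 24 h. It and LOC_Os06g50300 were the members of the 10 that stood lower at 80 than at 20 µM in roots at both times.

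**Figure D2:**
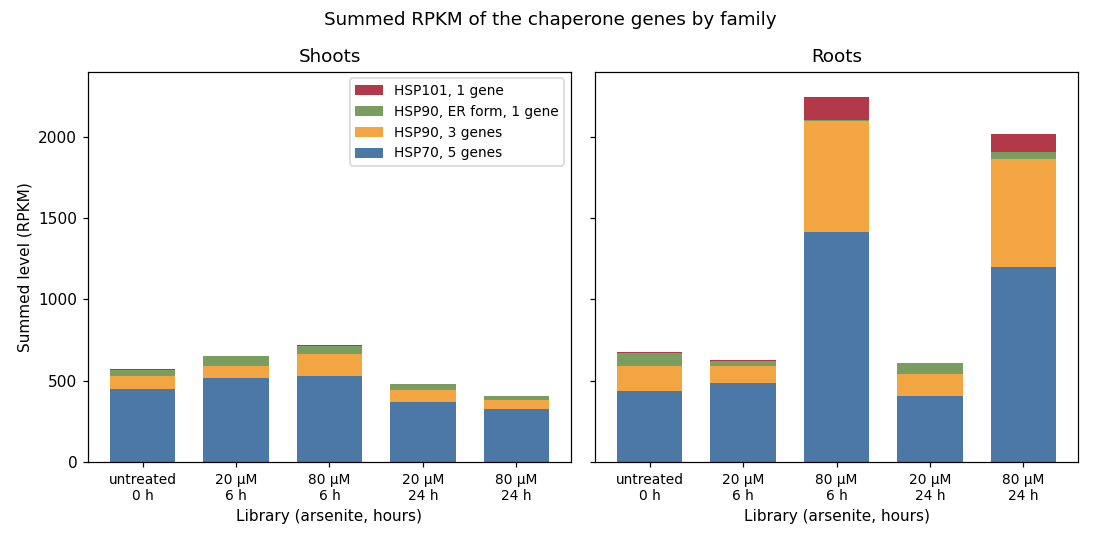
Summed RPKM (vertical axis, from 0) of the HSP101 gene, the endoplasmic reticulum HSP90 gene, the 3 cytosolic HSP90 genes and the 5 HSP70 genes in each mRNA library, shoots left and roots right, 1 library per bar. The 80 µM root bars reach 2245 and 2016 RPKM, and the other 8 bars lie between 404.9 and 719.2 RPKM.

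Summed over the 10 genes, roots held 673 RPKM untreated, 625.1 and 608.5 RPKM at 20 µM for 6 and 24 h, and 2245 and 2016 RPKM at 80 µM for 6 and 24 h. As a share of all RPKM in the library this was 0.214% untreated, 0.182% and 0.186% at 20 µM, and 0.608% and 0.601% at 80 µM. The sums at 20 µM were close to the untreated sum although single genes were not. HSP101 made up 6.32% of the 10-gene sum at 80 µM for 6 h, against 0.224% at 20 µM for 6 h. The 3 cytosolic HSP90 genes made up 30.4% at 80 µM for 6 h, against 16.3% at 20 µM. In shoots the sums were 571.2 RPKM untreated, 649.7 and 481.4 RPKM in the libraries labelled 20 µM for 6 and 24 h, and 719.2 and 404.9 RPKM at 80 µM for 6 and 24 h. The highest and the lowest shoot sums as deposited were thus both at 80 µM, at 6 h and at 24 h. Median ratio scaling moves every gene at 80 µM for 24 h up by 0.64 (log2) against untreated shoots. The sums were not rescaled, so their order is given for the deposited values alone.

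Counts at 2-fold set the members beside all genes with 5 RPKM or more in either library; with 1 library per group they carry no test. In roots at 80 µM for 6 h, 7 of 10 members were at least 2-fold above untreated roots, where 19% of 13959 genes were, and 2 were at least 2-fold below, where 48.7% were. The 2 were LOC_Os06g50300 and LOC_Os03g60620, and the gene with neither was LOC_Os11g47760. At 80 µM for 24 h the counts were 6 of 10 above, where 17.5% of 14128 genes were, and 0 of 10 below, where 35.9% were. These include 4 members that were under 5 RPKM in untreated roots, which could enter only by being higher. Of the 6 members at 5 RPKM or more in untreated roots, 3 were at least 2-fold above at 6 h, where 11.7% of 12515 genes were, and 2 at 24 h, where 10.1% were. The 3 were LOC_Os08g39140, LOC_Os09g30412 and LOC_Os03g16860, and LOC_Os09g30412 was 1.82-fold above at 24 h.

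Root libraries at 20 µM gave smaller counts. At 6 h, 3 of the 9 members that passed the minimum were at least 2-fold above untreated roots, where 13.6% of 13802 genes were, and 1 was below, where 16.9% were. At 24 h, 2 of 8 members were above, where 11.4% of 13713 genes were, and 0 were below, where 16.6% were. The members above at 6 h were LOC_Os04g01740, LOC_Os01g62290 and LOC_Os05g38530, all under 5 RPKM in untreated roots, and the one below was LOC_Os06g50300. None of the 6 members at 5 RPKM or more in untreated roots was 2-fold above it at 20 µM at either time.

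**Figure D3:**
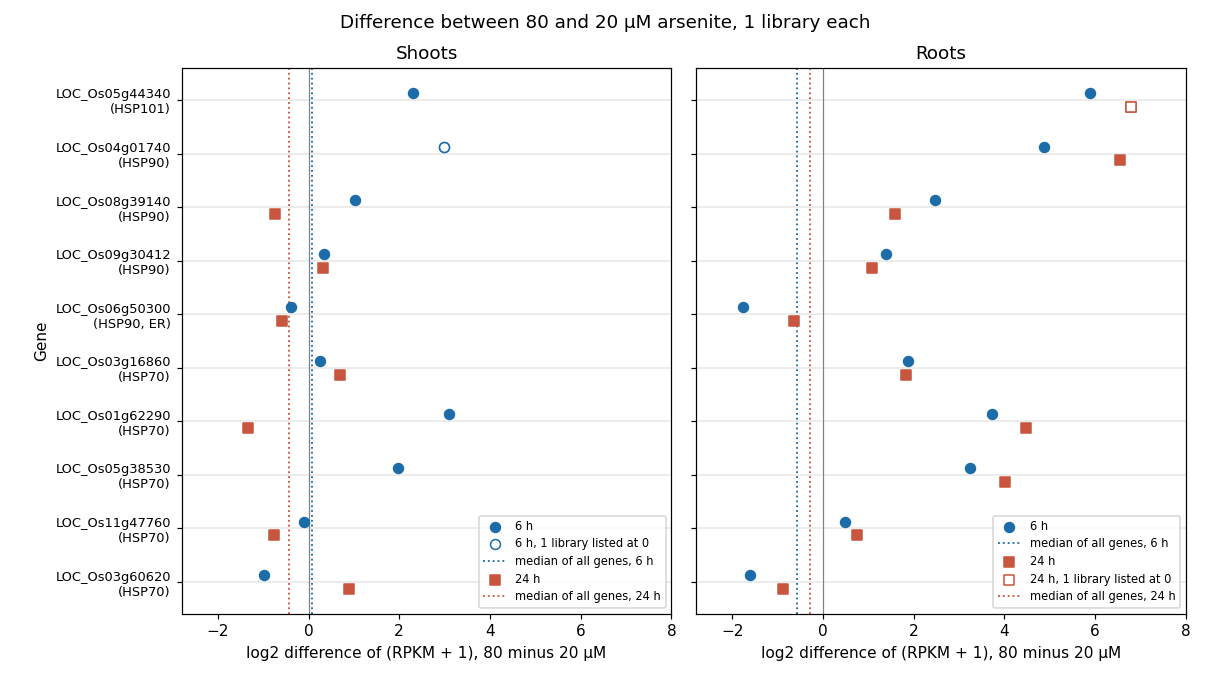
Difference between 80 and 20 µM arsenite for each gene (log2 of RPKM + 1, 80 minus 20 µM), shoots left and roots right, circles for 6 h and squares for 24 h, each 1 library against 1 library; open symbols mark a library listed at 0, genes under 5 RPKM in both libraries are left out, and dotted lines give the median of all genes. In roots 8 of 10 genes lie right of 0 at both times, and LOC_Os06g50300 and LOC_Os03g60620 lie left of it.

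The dose comparison, 80 against 20 µM, sets libraries of the same labelled harvest hour side by side and does not use the untreated library. The clock measure, dawn gene minus day genes, was -1.13 (log2) at 80 µM and -0.80 at 20 µM in roots at 6 h, and -0.87 at 80 µM and 1.77 at 20 µM in roots at 24 h. The root libraries at 24 h thus differed in the clock genes between the doses, and the part of that in the members' values was not tested. In roots 7 of 10 members were at least 2-fold higher at 80 µM at 6 h, where 15.2% of 12015 genes were, and 2 were at least 2-fold lower, where 38.3% were. At 24 h 7 of 10 were higher, where 15.7% of 12608 genes were, and 0 were lower, where 25.4% were. Of the members at 5 RPKM or more at 20 µM, 6 of 9 were higher at 6 h, where 9.82% of 11013 genes were, and 5 of 8 at 24 h, where 8.36% of 11060 genes were. The median log2 difference of all genes was -0.56 at 6 h and -0.27 at 24 h, and that of the members was 2.17 at 6 h and 1.72 at 24 h. Scaling the libraries by median ratios moves every root gene up by 0.80 (log2) at 6 h and 0.27 at 24 h, and it turned no member's direction in this comparison. With it, 8 of 10 members were at least 2-fold higher at each time, and 1 was lower at 6 h. These libraries also held fewer loci at 5 RPKM or more, 8016 and 9678 at 80 µM, against 11013 and 11060 at 20 µM for 6 and 24 h; the part of that in the members' values was not tested. In bulk tissue, fewer cells of a type and less RNA per cell cannot be told apart.

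A limma fit of all 10 libraries had separate dose terms for each tissue. In it the mean log2 difference between 80 and 20 µM roots over both times was 6.34 ± 0.98 (SE) for HSP101 and 5.71 ± 0.90 for LOC_Os04g01740. It was 4.09 ± 1.08 for LOC_Os01g62290 and 3.62 ± 0.84 for LOC_Os05g38530, both HSP70 genes. LOC_Os08g39140 had 2.04 ± 0.58, LOC_Os03g16860 1.86 ± 0.38 and LOC_Os09g30412 1.24 ± 0.42. For the other 3 the difference was 0.62 ± 0.39 for LOC_Os11g47760, -1.20 ± 0.48 for LOC_Os06g50300 and -1.25 ± 0.61 for LOC_Os03g60620. With 2 residual degrees of freedom limma called 0 of 18667 genes after Benjamini-Hochberg adjustment at 0.05, and adjusted p ran over 0.163 to 0.471 for the members. At an unadjusted p under 0.05 limma had 2892 genes, 916 of them higher (4.91%), and 7 members, all higher. The error here is how the dose difference varied between the times, not a spread between replicate plants. It was pooled over roots and shoots, the doubtful 20 µM shoot libraries among them, so each gene has the same SE in both tissues.

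Fitted on the root libraries alone, with 1 residual degree of freedom, limma called 529 of 15414 genes, 255 of them higher (1.65%). The members called were 5, all higher: HSP101, LOC_Os04g01740, LOC_Os03g16860, LOC_Os01g62290 and LOC_Os05g38530. These calls were made without the shoot libraries, among them the doubtful 20 µM ones, and not with them. A limma fit over all 4 pairs of libraries matched in tissue and time, with 3 residual degrees of freedom, called 0 of 17905 genes. It had 1846 genes at an unadjusted p under 0.05, 383 of them higher (2.14%), and 5 members, all higher, with adjusted p of 0.437 to 0.919 over the members.

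In shoots at 6 h, 5 of 10 members were at least 2-fold higher at 80 µM than in the library labelled 20 µM, where 13% of 13805 genes were, and 0 were lower, where 12% were. They were HSP101, LOC_Os04g01740, LOC_Os08g39140, LOC_Os01g62290 and LOC_Os05g38530. All but LOC_Os08g39140 were under 5 RPKM at 20 µM, and of the 6 members above that minimum at 20 µM 1 was higher, where 6% of 11796 genes were. At 24 h, 0 of the 7 members that passed the minimum were higher at 80 µM, where 14.3% of 12967 genes were, and 1 was lower, LOC_Os01g62290, where 31.6% were. That gene had 2.5 RPKM at 80 µM and could enter only by being higher at 20 µM.

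Set against untreated shoots, the 80 µM library at 6 h had 2 of 10 members at least 2-fold higher, where 9.38% of 13936 genes were, and 0 lower, where 12.6% were. The 2 were LOC_Os08g39140, 2.09-fold higher, and LOC_Os01g62290, 2.11-fold higher. At 80 µM for 24 h 0 of 9 were higher, where 9.15% of 13030 genes were, and 3 were lower, where 30.1% were. The 3 were LOC_Os04g01740, LOC_Os01g62290 and LOC_Os05g38530, a share near that of all genes. In the library labelled 20 µM 6 h 0 of 9 members were higher, where 6.2% of 13572 genes were, and the same 3 were lower, where 9.92% were. In both of these treated libraries the 3 were under 5 RPKM and could enter only by being higher in untreated shoots. In the one labelled 20 µM 24 h 0 of 9 were higher, where 10.3% of 13704 genes were, and 3 were lower, where 12.3% were, with LOC_Os03g60620 in place of LOC_Os01g62290. There LOC_Os04g01740 and LOC_Os05g38530 were again under 5 RPKM, and LOC_Os03g60620 had 17.1 RPKM.

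For shoots limma called 0 of 18667 genes between 80 and 20 µM, with 485 at an unadjusted p under 0.05, none of them a member, and adjusted p was 1 for each member. The estimates ran over -0.49 ± 0.48 (SE) for LOC_Os06g50300 to 1.49 ± 0.90 for LOC_Os04g01740. The difference between the tissues was tested in the same limma fit as the dose effect in shoots minus that in roots. It was -5.88 ± 1.38 (log2) for HSP101, -4.22 ± 1.28 for LOC_Os04g01740, -3.17 ± 1.18 for LOC_Os05g38530 and -1.38 ± 0.54 for LOC_Os03g16860. These 4 had an unadjusted p under 0.05 in limma, as did 1267 of 18667 genes, 603 of them lower (3.23%). After adjustment limma called 0 genes, with adjusted p of 0.622 to 0.847 over the members, so a weaker dose effect in shoots was not shown for any single member. Mean treated against untreated roots likewise gave 0 calls in limma, with 2196 genes and 4 members at an unadjusted p under 0.05, all 4 higher. Those 4 were HSP101, LOC_Os04g01740, LOC_Os01g62290 and LOC_Os05g38530, with mean log2 differences of 3.54, 4.47, 3.83 and 4.74 in that order. These same 4 members were under 5 RPKM in the 1 untreated root library. For treated against untreated shoots limma had 0 calls, and 332 genes and 0 members at an unadjusted p under 0.05.

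In roots at 80 µM, 1 of 10 members was at least 2-fold higher at 24 than at 6 h, where 25.1% of 10652 genes were, and 0 were lower, where 14.7% were. Median ratio scaling moves every root gene down by a log2 shift of -0.61 here, and with it 2 were lower, LOC_Os03g16860 (-1.34) and LOC_Os01g62290 (-1.03), and HSP101 (LOC_Os05g44340) was at -0.98. LOC_Os04g01740, LOC_Os05g38530 and LOC_Os11g47760 stood higher at 24 h as deposited and lower with that scaling. The member higher at 24 h was LOC_Os06g50300, with 44.5 RPKM at 24 h against 9.3 RPKM at 6 h. In roots at 20 µM 1 of 9 was higher at 24 h, again LOC_Os06g50300, where 7.6% of 12484 genes were, and 2 were lower, LOC_Os04g01740 and LOC_Os01g62290, where 11.2% were. LOC_Os04g01740 had 2.1 RPKM at 24 h and could enter only by being higher at 6 h. In shoots at 80 µM, 6 of 10 were lower at 24 than at 6 h, where 35.6% of 13477 genes were, and 0 were higher, where 15.2% were. The 6 were HSP101, LOC_Os04g01740, LOC_Os08g39140, LOC_Os01g62290, LOC_Os05g38530 and LOC_Os11g47760. Of these, 4 (HSP101, LOC_Os04g01740, LOC_Os01g62290 and LOC_Os05g38530) were under 5 RPKM at 24 h and could enter only by being higher at 6 h. Median ratio scaling moves every gene up by 0.66 (log2) here, which left 4 lower, without LOC_Os08g39140 (-0.80) and LOC_Os11g47760 (-0.50), and made 1 higher, LOC_Os03g60620 (1.08). Shoots labelled 20 µM had 1 of 7 higher, where 11% of 13405 genes were, and 1 lower, where 9.49% were. The higher one, LOC_Os01g62290, had 2.7 RPKM in the library labelled 6 h and could enter only by being higher at 24 h. Over the 4 pairs limma called 0 of 17905 genes for 24 against 6 h, with 350 genes and 0 members at an unadjusted p under 0.05 and an adjusted p of 0.9999 for each member.

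Shoots against roots of the same condition gave the member differences by tissue. Untreated, 3 of 9 members were at least 2-fold higher in shoots, where 21.1% of 15366 genes were, and 1 was lower, where 20.8% were. Higher in untreated shoots were LOC_Os04g01740, LOC_Os01g62290 and LOC_Os05g38530, of which the last had 16.9 RPKM in shoots against 0.3 RPKM in roots. All 3 were under 5 RPKM in untreated roots and could enter only by being higher in shoots; of the 6 members at 5 RPKM or more in untreated roots 0 were higher in shoots, where 8.23% of 12515 genes were. The lower one was LOC_Os08g39140. At 80 µM for 6 h 1 of 10 was higher in shoots, LOC_Os06g50300, where 48.2% of 14040 genes were, and 7 were lower, where 22.4% were. At 80 µM for 24 h 0 of 10 were higher, where 29.4% of 12956 genes were, and 8 were lower, where 37% were. Of the 8, 4 were under 5 RPKM in shoots and could enter only by being higher in roots. At 20 µM for 6 h 0 of 9 were higher, where 26.1% of 14626 genes were, and 3 lower, where 24.3% were. These 3 were under 5 RPKM in shoots and could enter only by being higher in roots. At 20 µM for 24 h 0 of 8 were higher, where 27.2% of 14591 genes were, and 1 lower, where 23.1% were.

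Over the 5 conditions limma called 5392 of 18667 genes between shoots and roots, 3068 higher (16.4%) and 2324 lower (12.4%) in shoots, and 1 member. LOC_Os08g39140 was lower in shoots by a log2 difference of -1.57 ± 0.41 (SE; limma adjusted p = 0.0159), and it was lower in 5 of 5 conditions. Without the pair at 80 µM for 6 h this call was lost in limma (adjusted p = 0.0589), and over 11 alternative settings adjusted p ran over 0.0151 to 0.0589. LOC_Os04g01740 differed by -3.06 ± 1.13 (limma adjusted p = 0.0657) and LOC_Os01g62290 by -2.45 ± 0.88 (limma adjusted p = 0.0605), neither passing the threshold. Over 11 alternatives limma's adjusted p ran over 0.00188 to 0.225 for LOC_Os04g01740, 0.00356 to 0.205 for LOC_Os01g62290 and 0.00706 to 0.737 for LOC_Os05g38530. All 3 passed without the untreated pair, with log2 differences of -4.41, -3.41 and -2.95 in that order. The first 2 of them also passed without the 20 µM libraries of both tissues. The remaining members had adjusted p of 0.111 to 0.968 in limma.

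**Figure D4:**
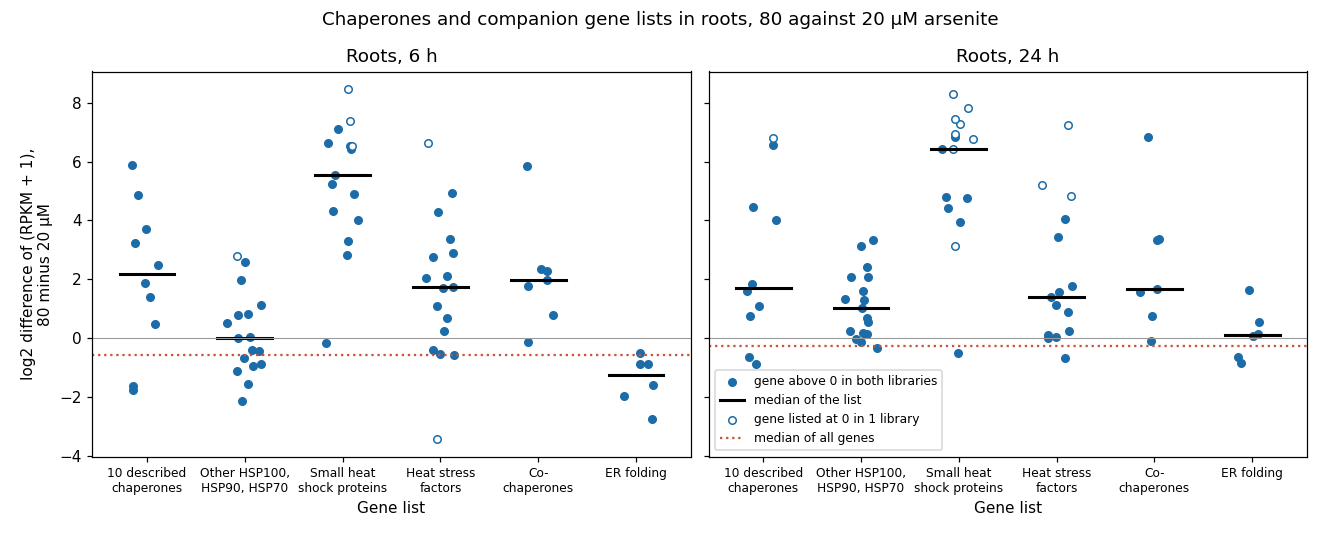
Difference between 80 and 20 µM in roots (log2 of RPKM + 1, 80 minus 20 µM) at 6 h (left) and 24 h (right) for the 10 chaperone genes and 5 companion lists, 1 point per gene that reached 5 RPKM in either library; bars are list medians, open points have a library listed at 0, and the dotted line is the median of all genes. Small heat shock proteins have the highest medians, 5.55 at 6 h and 6.44 at 24 h, and the endoplasmic reticulum folding genes lie at -1.24 and 0.10.

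Companion genes of the folding system were taken from lists of known rice loci and compared between 80 and 20 µM in roots, where 15.2% of all genes were at least 2-fold higher and 38.3% lower at 6 h, and 15.7% higher and 25.4% lower at 24 h. The genes named from each list are those with the highest signed mean difference, 80 minus 20 µM. Their values illustrate the comparison and support nothing, and a list that stood lower is shown by its least lowered genes. Of 15 small heat shock proteins, which hold unfolding proteins in a state that HSP70 and HSP101 can rescue, 14 were at least 2-fold higher at each time. At 20 µM 9 of the 15 were under 5 RPKM at 6 h and 11 at 24 h, and these could enter only by being higher at 80 µM. Of the 6 at 5 RPKM or more at 20 µM for 6 h, 5 were higher, where 9.82% of such genes were. At 24 h it was 3 of 4, where 8.36% were. LOC_Os02g54140 had 351.4 and 314.5 RPKM at 80 µM for 6 and 24 h and was listed at 0 at 20 µM at both times. LOC_Os01g04370 had 276.1 and 222.5 RPKM at 80 µM, against 1 and 0 RPKM at 20 µM for 6 and 24 h. LOC_Os04g36750 had 163.2 and 107.3 RPKM at 80 µM and was listed at 0 at 20 µM at both times. In untreated roots these 3 had 0 to 1.8 RPKM. Of 25 heat stress transcription factors, 17 passed the minimum at 6 h and 11 were higher and 1 lower. At 24 h 9 of 15 were higher and 0 lower. Those under 5 RPKM at 20 µM, 7 at 6 h and 5 at 24 h, could enter only by being higher at 80 µM. Of the 10 at 5 RPKM or more at 20 µM, 4 were higher at 6 h, where 9.82% of such genes were. At 24 h it was 4 of 10, where 8.36% were. LOC_Os06g36930 of that list had 98.5 and 149.6 RPKM at 80 µM for 6 and 24 h and was listed at 0 in 20 µM and untreated roots. LOC_Os03g53340 had 44.5 and 35.6 RPKM at 80 µM, against 0.5 and 0 RPKM at 20 µM for 6 and 24 h. LOC_Os03g06630 had 13.4 and 27.1 RPKM at 80 µM, against 0.4 and 0 RPKM at 20 µM. Of 7 co-chaperones, partners that regulate HSP70 and HSP90, 5 were higher and 0 lower at each time. Of the 6 at 5 RPKM or more at 20 µM, 4 were higher at each time. LOC_Os04g45480 had 103.8 and 158.3 RPKM at 80 µM, against 0.8 and 0.4 RPKM at 20 µM for 6 and 24 h. LOC_Os04g28420 had 87.1 and 96.1 RPKM at 80 µM, against 17.1 and 8.5 RPKM at 20 µM. LOC_Os08g36150 had 49 and 86.1 RPKM at 80 µM, against 11.7 and 7.7 RPKM at 20 µM.

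Other HSP100, HSP90 and HSP70 genes moved less uniformly than the small heat shock proteins. Of the 26 listed, 17 passed the minimum at 6 h, with a median log2 difference of 0. Of these, 4 were at least 2-fold higher at 80 µM, where 15.2% of all genes were, and 3 lower, where 38.3% were. At 24 h 9 of 17 were higher, where 15.7% of all genes were, and 0 lower, where 25.4% were, with a median of 1.02. At each time 4 of the 17 were under 5 RPKM at 20 µM and could enter only by being higher at 80 µM. Of the 13 at 5 RPKM or more at 20 µM, 1 was higher at 6 h, a share near the 9.82% of all such genes. At 24 h 6 of the 13 were higher, where 8.36% of such genes were. LOC_Os03g31300 had 28.4 and 67.7 RPKM at 80 µM, against 3.9 and 5.8 RPKM at 20 µM for 6 and 24 h. LOC_Os02g08490 had 20 and 38.6 RPKM at 80 µM, against 4.3 and 3.5 RPKM at 20 µM. LOC_Os09g31486 had 111.8 and 168.1 RPKM at 80 µM, against 51.1 and 30.6 RPKM at 20 µM. The endoplasmic reticulum folding genes, the compartment of LOC_Os06g50300, had 0 of 6 higher and 3 lower at 6 h, a share near that of all genes, and 1 higher and 0 lower at 24 h. LOC_Os02g02410 of that list, which the other family list also holds, had 44.2 and 146.1 RPKM at 80 µM, against 81.5 and 99.4 RPKM at 20 µM for 6 and 24 h. LOC_Os06g41770 had 21.5 and 100.2 RPKM at 80 µM, against 30.8 and 31.3 RPKM at 20 µM. LOC_Os04g32950 had 46.4 and 127.7 RPKM at 80 µM, against 86.8 and 122 RPKM at 20 µM. LOC_Os11g09280 and LOC_Os07g14270 of the list, named after their values were seen, were lower at both times as LOC_Os06g50300 was. At 24 h LOC_Os02g02410, LOC_Os06g41770, LOC_Os04g32950 and LOC_Os09g27830 of the list stood higher at 80 than at 20 µM. LOC_Os09g27830 had 1.9 and 14.3 RPKM at 80 µM, against 7.7 and 12.9 RPKM at 20 µM for 6 and 24 h. LOC_Os11g09280 had 26.7 and 68.6 RPKM at 80 µM, against 107.2 and 106.1 RPKM at 20 µM. LOC_Os07g14270 had 6.3 and 41.1 RPKM at 80 µM, against 47.5 and 74.9 RPKM at 20 µM. In shoots at 80 µM for 6 h 10 of the 11 small heat shock proteins that passed the minimum were at least 2-fold higher than at 20 µM, where 13% of all genes were, and 9 of the 11 were under 5 RPKM at 20 µM and could enter only by being higher. At 24 h 1 of 4 was higher and 2 were lower. Of the endoplasmic reticulum folding genes in shoots, 5 of 6 were at least 2-fold lower at 80 than at 20 µM at 24 h, where 31.6% of all genes were and the median log2 difference of all genes was -0.43.

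Likeness of pattern was measured as Pearson's r of log2(RPKM + 1) over the 10 libraries, among 18667 genes with the members left out. The libraries share tissue, dose and time, so r is a description. Closest to HSP101 were LOC_Os01g04380 (r = 0.994), LOC_Os03g14180 (r = 0.989) and LOC_Os01g04370 (r = 0.983), all on the small heat shock protein list. They were followed by the heat stress transcription factor LOC_Os06g36930 (r = 0.979) and by LOC_Os07g43740 (r = 0.975), which is on none of the lists. Over the 8 libraries left after the 80 µM roots are set aside, r was 0.961 for LOC_Os01g04380 and 0.882 to 0.941 for the other 4. The genes closest to LOC_Os06g50300 were LOC_Os05g14170 (r = 0.981), LOC_Os01g38620 (r = 0.976), LOC_Os11g36470 and LOC_Os10g32880 (r = 0.973 each) and LOC_Os12g38800 (r = 0.972), none of them on a list. Among the 10 members r ran over -0.67 to 0.978, with LOC_Os04g01740 and LOC_Os01g62290 the closest pair.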

How the data were processed

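Poly(A) RNA of 10 samples was measured; 10 miRNA libraries were not used here. For each mRNA library the authors deposited a table of RPKM, rounded to 1 decimal, for 57624 loci named by MSU identifiers. BWA was among the tools per the submitters' processing notes; no source used here gives its version, the genome build, the annotation or the counter, so no coordinates are printed. Samples were grouped by the labels' tissue, treatment and time, 1 library each.

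Values were analysed as log2(RPKM + 1), keeping genes at 5 RPKM or more in at least 1 library compared or fitted. Pairs of single libraries were compared by counts at 2-fold, with no test. Models were fitted to all genes with limma 3.58.1 (R 4.3.3) using its trend option. The p-values were adjusted by Benjamini-Hochberg, with calls at 0.05. The fits were dose over 4 tissue and time pairs, time over 4 tissue and dose pairs, and shoots against roots over 5 conditions. A further model of all 10 libraries had terms for treatment, dose and time within each tissue and an error shared by both tissues. That model assumes that the single untreated library varies as much as the treated ones. The script was tested on simulated data. The alternatives were pseudocounts of 5 and 0.1, no filter, median ratio scaling, no trend, the 20 µM shoot libraries left out, and each pair left out; for member counts over time and between tissues they were added after the data were seen.

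All 10 members are named, with the 3 genes of each companion list that had the largest mean dose difference in roots, and the 5 genes most correlated with HSP101 and with the endoplasmic reticulum HSP90 gene. The members and lists were chosen with earlier results of these data known. The lists and family names come from general knowledge of rice loci, and 0 MSU identifiers were found in the RefSeq gene table (ASM3414082v1), where a gene with the symbol HSP101 is on the chromosome of LOC_Os05g44340.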

Additional observations from a re-analysis of the deposited data

How the results depend on the processing

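No paired analysis was possible because each group holds 1 library, so no replicate number pairs libraries; the pairs in the limma fits are matched by condition. Of 226 summary counts under alternatives, 198 stayed within 1.5 times the reported count and 28 did not. With a pseudocount of 5, the members at least 2-fold higher were 1 in roots at 20 µM for 24 h and 1 in shoots at 80 µM for 6 h, both against untreated, and the members lower in shoots at 80 against 20 µM at 24 h were 0. With a pseudocount of 0.1, 1 member was lower in shoots at 80 against 20 µM at 6 h. With median ratio scaling 1 member was lower in roots at 80 µM for 6 h against untreated, 1 in roots at 80 against 20 µM at 6 h and 1 in shoots at 6 h; 1 was higher in shoots at 80 µM for 24 h against untreated, and at 80 against 20 µM at 24 h in shoots 2 were higher and 0 lower. Without a filter 3 were lower in that last comparison. Among the alternatives added after seeing the data, for 24 against 6 h, the pseudocount of 5 left 0 members higher and 0 lower in roots at 20 µM and 0 higher in shoots at 20 µM; median ratio scaling left 0 higher in roots at 20 µM and gave 2 lower in roots and 1 higher in shoots at 80 µM. For shoots against roots at 20 µM for 24 h, no filter gave 1 higher and 2 lower, and the pseudocount of 0.1 gave 2 lower. Among limma's calls, leaving out the 20 µM shoot libraries gave 1984 genes for dose, 529 for dose in roots, 247 for treated roots and 2671 for shoots against roots. The pseudocount of 5 gave 5 genes for dose in roots, and no filter gave 359 for treated roots and 382 for treated shoots. Leaving out each pair gave 0 to 19 genes for dose, the 19 without the shoot 24 h pair, and 3694 to 5209 for shoots against roots. The cause of these changes was not tested.

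Of 580 single-gene values under alternatives, 539 kept their direction and side of the threshold, 21 passed it anew, 1 no longer passed it and 19 changed sign, all of them in differences that were not called. For dose LOC_Os11g47760 became -0.04 and -0.13 without the root 6 h or 24 h pair, the highest of its leave-one-out values being 0.38. For time LOC_Os08g39140 became 0.20 and LOC_Os05g38530 0.10 without the shoot 80 µM pair, LOC_Os06g50300 -0.16 without the root 80 µM pair, and LOC_Os03g60620 0.31 without the 20 µM shoots. The other ends of the leave-one-out ranges were -0.48 for LOC_Os08g39140, -0.91 for LOC_Os05g38530, 0.84 for LOC_Os06g50300 and -0.37 for LOC_Os03g60620. For shoots against roots LOC_Os06g50300 became -0.0057 with a pseudocount of 5, -0.071 with median ratio scaling, and -0.15 and -0.50 without the 6 h pair at 20 or at 80 µM; LOC_Os11g47760 became 0.13 without the 80 µM 24 h pair, and LOC_Os03g60620 0.33 without the 20 µM shoots and 0.22 without the 20 µM 24 h pair. Their leave-one-out ranges had 0.29, -0.37 and -0.27 at the other end, in that order of genes. For dose in shoots HSP101 (LOC_Os05g44340) became -0.54 with a pseudocount of 0.1 and LOC_Os03g60620 0.17 with median ratio scaling. For treated shoots that scaling gave 0.13 for LOC_Os09g30412, 0.11 for LOC_Os06g50300 and 0.15 for LOC_Os11g47760. Depth is unknown, so the counting error of low values is unknown as well.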
